A study of Mus musculus with 6 samples.

Results

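*Ct55*, given in the array table under its older symbol 4930502E18Rik, was the 1 gene of 10 germline and cancer-testis genes that was read above background, and that was so in M0505 cells only. The other 9 genes (*Dazl*, *Ddx4*, *Mael*, *Sycp3*, *Tex101*, *Stk31*, *Asz1*, *Mov10l1* and *Tdrd1*) lay under the background level on all 6 arrays. The 10 genes were taken by symbol from the 20405 genes of the table, and each had a single probe set. They were selected on their germline roles with their values on these 6 arrays, and the difference between STOSE and M0505 cells, already known. That difference is therefore given for them as a description and was not tested.

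RNA from 3 M0505 samples and 3 STOSE samples, which the labels name as biological replicates, was hybridized to Affymetrix whole-transcript mouse arrays, 1 array for each sample. M0505 is a line of ovarian surface epithelium from FVB/N mice, and STOSE is the line into which it transformed, with no gene introduced, during long culture. Both were kept in the same medium, and each is a single line, so differences between the groups are differences between 2 lines. Values are robust multi-array average (RMA) values on a log2 scale, for which a difference of 1 is a 2-fold change. RNA was pooled over cells, so fewer cells expressing a gene and less RNA per cell cannot be told apart.

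Germline genes are used by egg and sperm precursors and are kept silent in the cells of other tissues, largely by methylation of CpG-rich promoters and by a Polycomb complex that E2F6 and MGA bring to DNA. Cancer-testis genes are germline genes, many of them on the X chromosome, that can be expressed again in tumors. Several germline genes act in the piRNA pathway, in which small RNAs bound by PIWI proteins in cytoplasmic granules called nuage silence transposons, and others build the paired chromosomes of meiosis.

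The background level was set at the 95th percentile over 1134 probe sets for olfactory receptors, which stand in for unexpressed genes here, and was 4.74 on the log2 scale. Of all genes on the array, 69.1% had an M0505 mean and 70.4% a STOSE mean above it. Probe sets bind RNA with unequal strength, so the level is a guide, and values of different genes are not amounts of RNA on 1 scale.

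*Ct55*, on the X chromosome, encodes cancer/testis antigen 55, a protein of the male germline. Its log2 RMA values were 11.11, 10.73 and 11.05 in the M0505 samples and 3.90, 3.91 and 4.27 in the STOSE samples. All 3 M0505 samples were far above the background level and all 3 STOSE samples were under it, with no overlap. The M0505 mean was 10.97 ± 0.21 and the STOSE mean 4.03 ± 0.21 (SD, n = 3 each), a log2 fold change of -6.94 (standard error 0.13) or a linear fold change of -123. Because the STOSE mean is under the background level, the fold is better read as a bound. Against the background level, *Ct55* was at least 74.8-fold higher in M0505 cells.

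**Figure D1:**
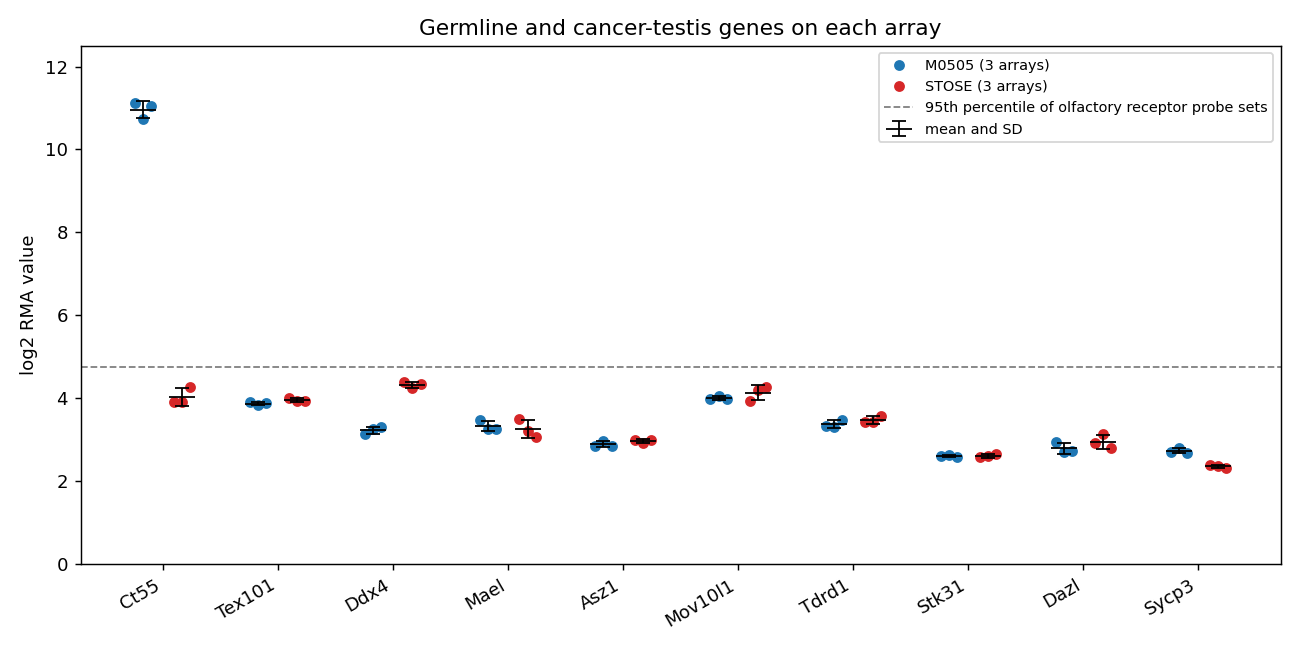
Log2 RMA value of each of the 10 genes on each of the 6 arrays (points), with the mean and SD of each line (bars) and the olfactory receptor 95th percentile of 4.74 (dashed line). The 3 M0505 values of *Ct55* lie near 11, and every other point lies under the dashed line.

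Promoter sequences are shown for *Ct55* and for *Dazl*, *Mael* and *Sycp3*, since they differ in the feature that DNA methylation acts on. The stretch read for each gene was the 250 bases before the most upstream transcript start in a RefSeq promoter table (build GRCm38.p6). For 5 of the 10 genes the RefSeq gene interval begins before that start, so 176 bases of the *Ct55* stretch, 103 of *Mov10l1*, 38 of *Tdrd1*, 33 of *Stk31* and all 250 of *Ddx4* lie inside the interval. Only bases outside the interval are printed, 5′ to 3′ on the gene's strand, with each CpG in capitals. They are chrX:53724581-53724654 (plus strand, 74 bases), chr17:50293621-50293870 (minus strand), chr1:166238745-166238994 (minus strand) and chr10:88459337-88459586 (plus strand).
Ct55: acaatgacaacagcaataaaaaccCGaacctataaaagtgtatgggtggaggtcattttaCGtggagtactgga
Dazl: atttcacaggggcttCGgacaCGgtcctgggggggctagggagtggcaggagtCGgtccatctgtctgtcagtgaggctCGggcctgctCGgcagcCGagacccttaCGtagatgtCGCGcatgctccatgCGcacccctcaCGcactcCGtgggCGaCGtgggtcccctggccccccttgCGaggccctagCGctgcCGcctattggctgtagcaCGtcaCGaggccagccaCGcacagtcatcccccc
Mael: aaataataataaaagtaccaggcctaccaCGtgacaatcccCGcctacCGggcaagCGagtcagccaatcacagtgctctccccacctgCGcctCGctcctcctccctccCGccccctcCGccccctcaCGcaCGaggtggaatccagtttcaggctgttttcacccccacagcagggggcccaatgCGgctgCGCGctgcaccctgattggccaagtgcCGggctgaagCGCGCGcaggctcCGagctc
Sycp3: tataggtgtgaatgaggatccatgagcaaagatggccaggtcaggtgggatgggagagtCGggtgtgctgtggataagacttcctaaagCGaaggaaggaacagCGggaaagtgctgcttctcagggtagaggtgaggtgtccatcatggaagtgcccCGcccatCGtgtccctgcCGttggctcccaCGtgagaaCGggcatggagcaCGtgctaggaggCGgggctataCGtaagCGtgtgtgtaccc

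The whole 250-base *Ct55* stretch held 4 CpG dinucleotides, an observed over expected ratio of 0.30, and 2 of the 4 are in the 74 bases shown. The median of 27025 promoter stretches of the same length, 1 for each gene, was 6 CpG with a ratio of 0.38. The other 9 genes held 11 to 31 CpG with ratios of 0.53 to 1.00, all above the median of all promoters. *Ddx4* held the most of the 10, with 31, a number reached by 4.93% of all promoters. The 5 stretches that lie wholly before their gene intervals held 12 to 20. Methylation of these stretches was not measured.

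**Figure D2:**
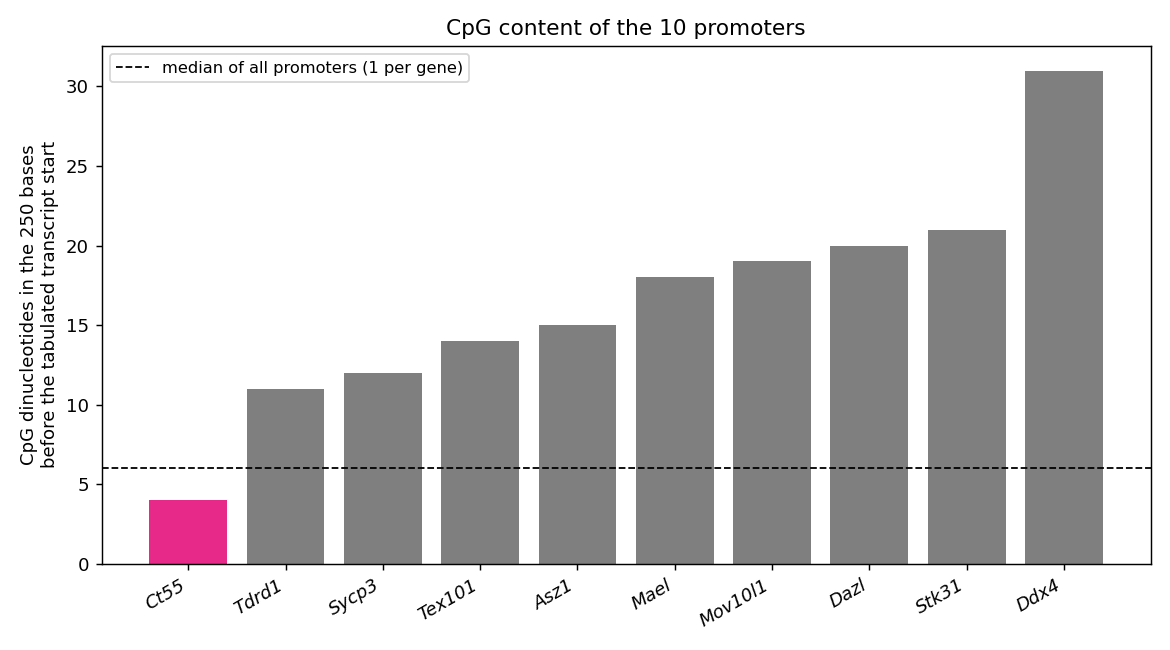
Number of CpG dinucleotides in the 250 bases before the most upstream tabulated transcript start of each of the 10 genes, which for 5 genes reach into the gene interval, with the median of all promoters (dashed line, 6). *Ct55* holds 4, and the other 9 genes hold 11 to 31.

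The stretches were also searched for CACGTG, the E-box letters that MGA and its partner MAX can bind, which reads the same on both strands and holds 1 CpG. It was in 7 of the 10 (*Ct55*, *Ddx4*, *Mael*, *Mov10l1*, *Stk31*, *Sycp3* and *Tdrd1*), with 2 copies in *Sycp3*, against 6.04% of all promoters. The *Ct55* copy is not within the 74 bases shown. The letters GCGGGA, or TCCCGC on the other strand, which are part of E2F sites, were in 3 of the 10 (*Ddx4*, *Mael* and *Sycp3*) against 16.9% of all promoters. *Ct55* and 6 genes under the background level shared CACGTG, and its bearing on their expression was not tested. A match shows that the letters are there, not that a factor was bound.

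*Ddx4* encodes the germ cell RNA helicase also known as mouse vasa homolog, a nuage protein. Its log2 values were 3.12, 3.24 and 3.29 in M0505 cells and 4.38, 4.24 and 4.34 in STOSE cells. All 3 STOSE samples were above all 3 M0505 samples, and all 6 values were under the background level. The log2 fold change was 1.10 (standard error 0.07), from 3.22 ± 0.08 (SD, n = 3) to 4.32 ± 0.07 (SD, n = 3). Since both means are under the background level, this is no measure of expression in either line.

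*Mael*, which encodes the nuage protein maelstrom, had log2 values of 3.47, 3.25 and 3.26 in M0505 cells and 3.49, 3.21 and 3.05 in STOSE cells, with a log2 fold change of -0.07 (standard error 0.12). *Asz1*, which encodes a nuage protein at germ cell mitochondria, had 2.85, 2.97 and 2.83 against 2.99, 2.91 and 2.98 (log2 fold change 0.08, standard error 0.06). *Mov10l1*, which encodes the helicase that handles piRNA precursors, had 3.98, 4.05 and 3.97 against 3.93, 4.20 and 4.26 (log2 fold change 0.13, standard error 0.09). The lines overlapped in each of these 3 genes. *Tdrd1*, a Tudor domain protein gene, had 3.32, 3.30 and 3.47 against 3.42, 3.41 and 3.57 (log2 fold change 0.11, standard error 0.07). *Stk31*, which encodes a Tudor domain protein with a kinase domain, had 2.59, 2.62 and 2.58 against 2.57, 2.59 and 2.65 (log2 fold change 0.01, standard error 0.06). Both overlapped between the lines as well.

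*Dazl* encodes an RNA-binding protein needed for germ cell development. Its log2 values were 2.94, 2.70 and 2.71 in M0505 cells and 2.91, 3.12 and 2.78 in STOSE cells, which overlapped (log2 fold change 0.15, standard error 0.10). *Sycp3* encodes a structural protein of meiotic chromosome axes. It had 2.70, 2.80 and 2.68 against 2.38, 2.36 and 2.30, with every STOSE sample lower (log2 fold change -0.38, standard error 0.06). *Tex101*, which encodes a glycoprotein of the germ cell surface, had 3.89, 3.83 and 3.87 against 4.00, 3.93 and 3.93, with every STOSE sample higher by a small amount (log2 fold change 0.09, standard error 0.06).

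Taking the 10 genes, all STOSE samples were below all M0505 samples in 2 (*Ct55* and *Sycp3*), where 27.0% of all genes were, and above them in 2 (*Ddx4* and *Tex101*), where 37.6% of all genes were. The lines overlapped in the other 6. The SD of a gene within a line was 0.02 to 0.22. The median log2 fold change was 0.08 for the 10 genes and 0.08 for all genes on the array. With each array left out in turn, the log2 fold change ran from -7.06 to -6.87 for *Ct55*, from 1.06 to 1.14 for *Ddx4* and from -0.41 to -0.34 for *Sycp3*. It changed sign for *Mael* (-0.19 to 0.03) and *Stk31* (-0.02 to 0.02), and ran from 0.06 to 0.23 for *Mov10l1* and *Dazl*, from 0.06 to 0.16 for *Tdrd1*, from 0.05 to 0.12 for *Asz1* and from 0.06 to 0.10 for *Tex101*. Leaving out the dimmest 25% of genes on the array left 1 of the 10, *Ct55*.

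Germline genes other than the 10 were then read from 6 lists (piRNA pathway and nuage, meiotic chromosomes, germ cell regulators, cancer-testis antigens, oocytes and spermatids), which held 162 further genes on the array. STOSE and M0505 cells were compared with limma over all 20405 genes, and a gene was called changed where the Benjamini-Hochberg adjusted p was below 0.05 and the lines differed at least 2-fold. Of the 162 genes, 4 fell and 4 rose in STOSE cells, which is 2.47% in each direction, against 7.59% lower (1548) and 4.9% higher (1000) among all genes. With each array centred on its median, 2 of the 162 were lower and 5 higher, and 1177 of all genes were lower and 1466 higher. The median log2 fold change of the 162 was 0.08, as over all genes. Both lines were under the background level for 104 of the 162, where a fall could not be read.

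**Figure D3:**
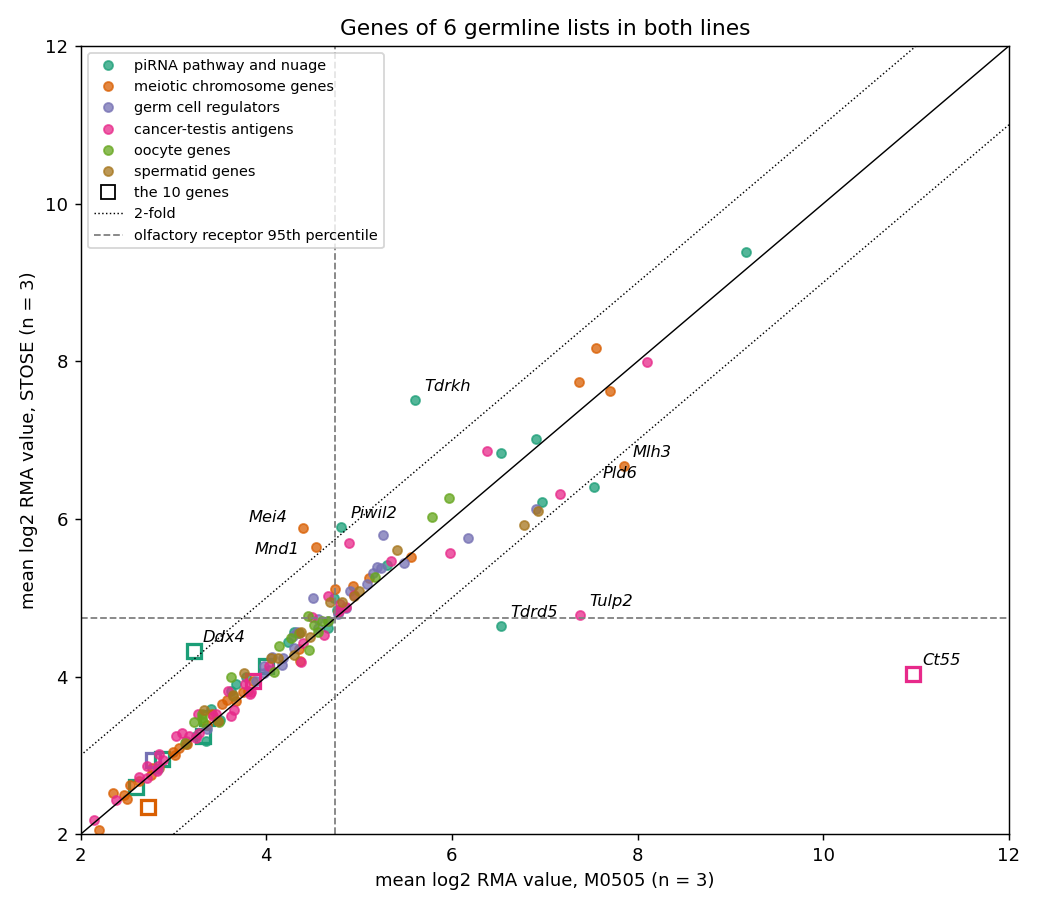
Mean log2 RMA value in STOSE cells (y axis, n = 3) against M0505 cells (x axis, n = 3) for the genes of the 6 germline lists, colored by list, with the 10 genes as open squares, the olfactory receptor 95th percentile (dashed lines), equality (solid line) and 2-fold differences (dotted lines). Most genes lie near equality at the lower left, and *Ct55*, at 10.97 and 4.03, lies farthest from the line.

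In the piRNA list, 2 of 21 further genes fell and 2 rose, 9.52% each way against 7.59% lower and 4.9% higher among all genes. *Tdrd5*, a Tudor domain protein gene, had log2 values of 6.60, 6.57 and 6.44 in M0505 cells and 4.50, 4.51 and 4.92 in STOSE cells (-1.89 ± 0.11 on the log2 scale, fold change ± standard error, adjusted p = 2.57e-06 by limma). The STOSE mean of 4.64 was under the background level, against which the difference was at least 3.46-fold. *Pld6*, which encodes a mitochondrial surface phospholipase that takes part in piRNA formation, fell from 7.53 ± 0.10 (SD, n = 3) to 6.40 ± 0.17 (log2 fold change -1.12, limma adjusted p = 1.83e-05). It was at -0.95 after a further quantile normalization and at -0.92 with each array centred on its median, both under 2-fold. *Tdrkh*, which encodes a Tudor protein that joins PIWI proteins to mitochondria, had 5.50, 5.62 and 5.69 in M0505 cells and 7.41, 7.63 and 7.50 in STOSE cells, with no overlap (1.91 ± 0.08 on the log2 scale, fold change ± standard error, adjusted p = 3.47e-07 by limma). *Piwil2*, 1 of the mouse PIWI genes, rose from 4.81 ± 0.05, close to the background level, to 5.90 ± 0.12 (log2 fold change 1.10, limma adjusted p = 4.37e-06). The other 17, among them the PIWI gene *Piwil1* (4.23 and 4.44), were not called.

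In the meiotic list, 1 of 34 further genes fell (2.94%, against 7.59% of all genes) and 2 rose (5.88%, against 4.9%). *Mlh3*, a DNA mismatch repair gene that also acts at meiotic crossovers, fell from 7.85 ± 0.14 (SD, n = 3) to 6.67 ± 0.10 (-1.18 ± 0.09 on the log2 scale, fold change ± standard error, adjusted p = 7.92e-06 by limma), and was at -0.98 with each array centred on its median. *Mei4* (4930486G11Rik in the table), needed for meiotic DNA breaks, had 4.30, 4.60 and 4.26 in M0505 cells and 5.62, 5.94 and 6.11 in STOSE cells (1.50 ± 0.14 on the log2 scale, fold change ± standard error, adjusted p = 2.72e-05 by limma). *Mnd1*, which encodes a partner of the meiotic strand exchange enzyme, had 4.86, 4.39 and 4.37 against 5.63, 5.64 and 5.69 (1.11 ± 0.12 on the log2 scale, fold change ± standard error, adjusted p = 9.42e-05 by limma). The M0505 means of both were under the background level, against which *Mei4* was at least 2.22-fold and *Mnd1* at least 1.88-fold higher in STOSE cells.

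In the list of cancer-testis antigens, 1 of 42 further genes fell (2.38%, against 7.59% of all genes) and none rose (limma, with 14 at an unadjusted p under 0.05, and 1 called in either direction by the methods' t-test). With each array centred on its median 1 gene, *Plac1*, was called higher. The gene that fell was *Tulp2*, a tubby-like protein gene expressed in testis. Its log2 values were 7.71, 7.31 and 7.12 in M0505 cells and 4.59, 4.67 and 5.07 in STOSE cells, with no overlap (-2.60 ± 0.17 on the log2 scale, fold change ± standard error, adjusted p = 3.76e-06 by limma). The STOSE mean of *Tulp2*, 4.78, was close to the background level. *Luzp4*, an X-linked member named after its values were seen, was above the background level in both lines, at 8.10 ± 0.22 (SD, n = 3) and 7.99 ± 0.01, and was not called (limma adjusted p = 0.403). The *Mage* gene *Magea1* was under the background level, at 2.82 and 2.80, and was also named after its values were seen.

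No gene was called by limma among 27 further germ cell regulators, 20 oocyte genes and 18 spermatid genes. Among all genes 7.59% were called lower and 4.9% higher. At an unadjusted p under 0.05 limma passed 11, 9 and 6 of them, and the methods' t-test with the 2-fold threshold called 0 in each list. Both lines were under the background level for 15, 16 and 11 of them. *Pou5f1*, a transcription factor gene of primordial germ cells, had means of 4.29 and 4.52 and *Gdf9*, an oocyte growth factor gene, of 4.27 and 4.49, all under the background level. These 2 genes were also named after their values were seen.

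The X chromosome, where *Ct55* lies, held 19 further genes of the 6 lists. None of them was called (limma, with 5 at an unadjusted p under 0.05 and 0 by the methods' t-test), and 2 had an M0505 mean above the background level. Over the 760 X-linked genes on the array, 88 fell (11.6%, against 7.59% of all genes) and 25 rose (3.29%, against 4.9%) in STOSE cells, with a median log2 fold change of 0.01.

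Along the chromosomes, the 2 nearest genes on the array on each side of each of the 10 were read from the RefSeq gene order of GRCm38.p6. Of these 40 neighbors, 4 fell and 4 rose in STOSE cells, which is 10% each way, against 7.59% lower and 4.9% higher among all genes. Both lines were under the background level for 7 of the 40, where a fall could not be read. Next to *Ct55*, *Zfp36l3* had a log2 fold change of 0.24 and AW822252 of 0.51, and *Xlr*, a little farther on, had -0.07, none of them called. In M0505 and STOSE cells AW822252 had means of 5.56 and 6.07. *Zfp36l3*, at 4.81 and 5.04, was close to the background level, and *Xlr*, at 2.82 and 2.74, was under it. A fall could thus not be read for *Xlr*, and hardly for *Zfp36l3*. These 3 neighbors were named after their values were seen. *Cxx1b* fell (-1.17 ± 0.07 on the log2 scale, fold change ± standard error, adjusted p = 1.93e-06 by limma), and since it has near-identical copies its reading may be shared with them.

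*Asz1* lies between *Wnt2*, a Wnt ligand gene, and *Cftr*, a chloride channel gene, and both fell. *Wnt2* had log2 values of 9.62, 9.30 and 9.32 in M0505 cells and 4.62, 4.84 and 4.68 in STOSE cells (-4.70 ± 0.10 on the log2 scale, fold change ± standard error, adjusted p = 1.06e-08 by limma). *Cftr* had 6.96, 6.57 and 6.55 against 3.87, 3.90 and 3.68 (-2.88 ± 0.12 on the log2 scale, fold change ± standard error, adjusted p = 3.15e-07 by limma). The STOSE means of both, 4.71 and 3.82, were under the background level, against which *Wnt2* was at least 25.5-fold and *Cftr* at least 3.87-fold higher in M0505 cells. Between them *Asz1* stayed under the background level in both lines. Of the other neighbors, *Chpt1*, which overlaps *Sycp3* in the annotation, fell by 1.30 on the log2 scale (limma adjusted p = 6.92e-06). *Rftn1* and *Plcl2* near *Dazl*, *Ppap2a* near *Ddx4* and *Mpp6* near *Stk31* rose, with log2 fold changes of 1.74, 1.92, 1.60 and 2.01.

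**Figure D4:**
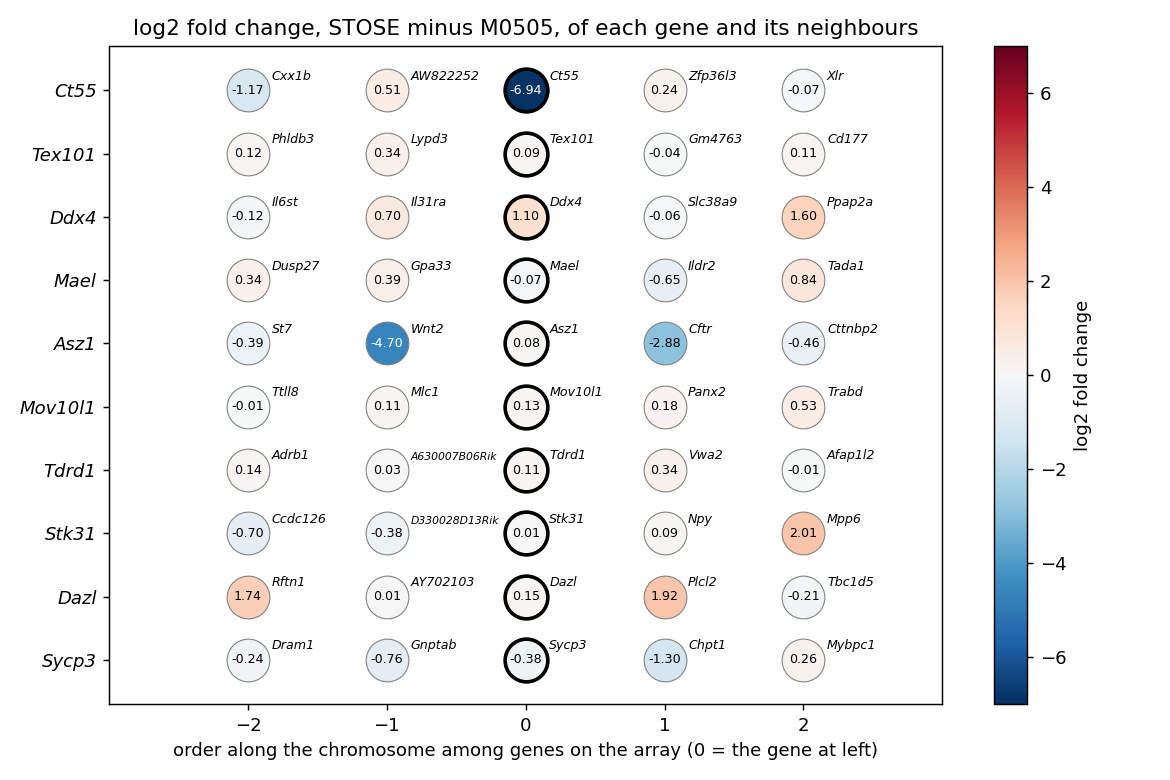
Log2 fold change, STOSE minus M0505, of each of the 10 genes (middle column) and of the 2 nearest genes on the array on each side (columns -2 to 2), colored from lower (blue) to higher (red) in STOSE cells. *Ct55*, at -6.94, has neighbors between -1.17 and 0.51, of which *Xlr* was under the background level in both lines and *Zfp36l3* close to it. *Asz1*, at 0.08, lies between *Wnt2* at -4.70 and *Cftr* at -2.88.

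A list of 28 genes that act on the silencing of germline genes was above the background level in both lines, except *Tet1* in STOSE cells. Of the 28, 2 rose (7.14%, against 4.9% of all genes) and 1 fell (3.57%, against 7.59%), and with each array centred on its median 4 were higher and 1 lower. *Uhrf1*, which brings the maintenance methyltransferase to newly copied DNA, had log2 values of 8.67, 8.45 and 8.45 in M0505 cells and 10.05, 9.86 and 9.79 in STOSE cells (1.38 ± 0.09 on the log2 scale, fold change ± standard error, adjusted p = 4.45e-06 by limma). *Hells*, a chromatin remodeler gene, rose from 8.15 ± 0.08 (SD, n = 3) to 9.43 ± 0.08 (log2 fold change 1.29, limma adjusted p = 1.24e-06). *Tet1*, whose enzyme starts the removal of DNA methylation, fell, at 7.84, 7.95 and 7.65 against 4.60, 4.30 and 4.47 (-3.36 ± 0.10 on the log2 scale, fold change ± standard error, adjusted p = 5.88e-08 by limma), which is at least 8.41-fold against the background level.

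The DNA methyltransferase genes were not called. *Dnmt1*, the maintenance enzyme, was 1.75-fold higher in STOSE cells (9.55 ± 0.12 and 10.36 ± 0.06 (SD, n = 3), limma adjusted p = 3.05e-05), and reached a log2 fold change of 1.01 with each array centred on its median. *Dnmt3a* was at 7.63 in both lines (limma adjusted p = 0.971), and *Dnmt3b* was close to the background level, at 4.87 and 5.14. Of the Polycomb complex, *E2f6* was 1.41-fold higher (8.63 and 9.13, limma adjusted p = 9.10e-05) and *Mga* 1.65-fold lower in STOSE cells (8.03 and 7.31, limma adjusted p = 1.41e-04), each under 2-fold. *Pcgf6* (9.76 and 9.63, limma adjusted p = 0.135) and *L3mbtl2* (8.11 and 8.31, limma adjusted p = 0.101) overlapped between the lines.

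**Figure D5:**
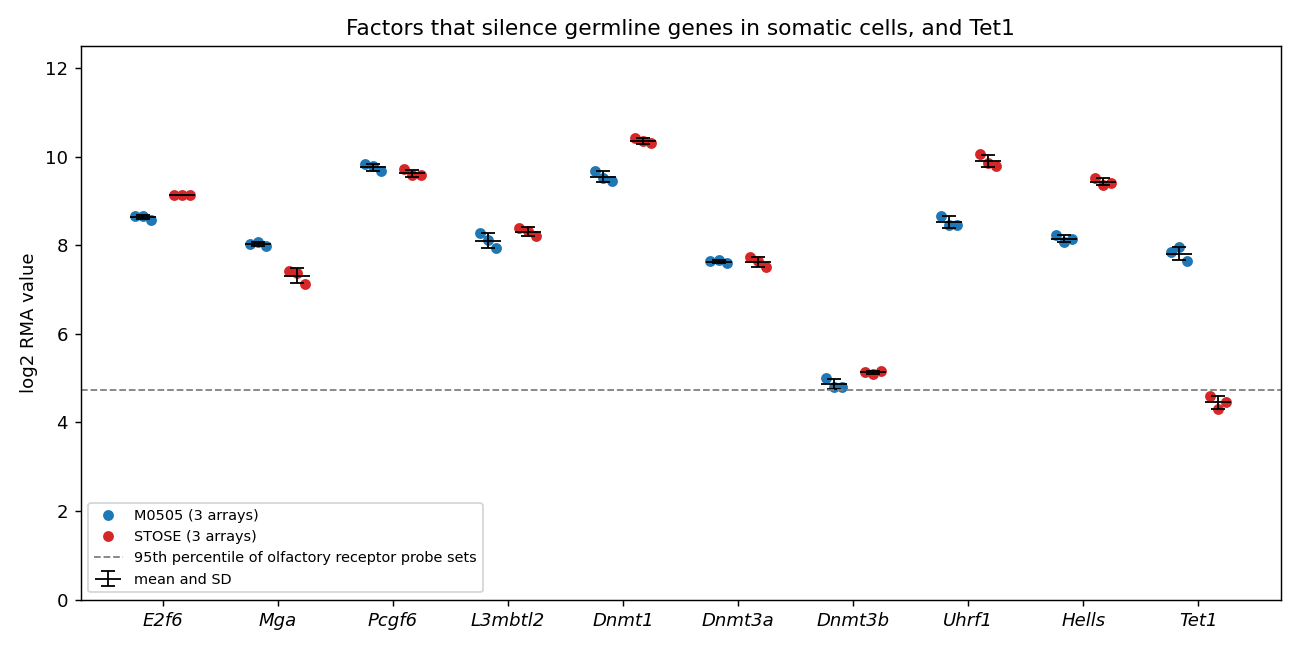
Log2 RMA value of 10 genes for factors that act on germline gene silencing on each of the 6 arrays (points), with the mean and SD of each line (bars) and the olfactory receptor 95th percentile of 4.74 (dashed line). *Uhrf1*, *Hells* and *Dnmt1* are higher in STOSE cells, and the 3 STOSE values of *Tet1* lie under the dashed line.

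The 5 genes outside the lists whose 6 values lay nearest to those of *Ct55* by Euclidean distance were *Gpr126*, *Enpp2*, *Gpr64*, *Aldh1a2* and *Thbd*, at distances of 0.66, 0.67, 0.92, 1.02 and 1.38 on the log2 scale. *Gpr126* and *Gpr64* are adhesion G protein-coupled receptor genes, *Enpp2* encodes autotaxin, *Aldh1a2* a retinoic acid synthesis enzyme and *Thbd* thrombomodulin. *Gpr64* is X-linked, as is *Ct55*, and the other 4 are on 4 other chromosomes. The distance compares levels of different probe sets over 6 samples in 2 lines, and most of the STOSE values in it are under the background level, so it describes the array readings and not amounts of RNA.

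The labelled tissue was checked against 13 markers of ovarian surface epithelium, which were all above the background level in both lines. *Cdh1* was only just above it, at 4.79 and 4.82. Of the 13, 5 fell (38.5%, against 7.59% of all genes), among them the keratin genes *Krt19* (log2 fold change -5.56) and *Krt8* (-4.55). The mesothelial marker *Upk3b* was at 12.25 in M0505 and 11.91 in STOSE cells. Of 20 oocyte genes 16 were under the background level in both lines, the zona gene *Zp3* among them, at 4.56 and 4.57. The summed linear signal of the oocyte list was 427, 448 and 445 in the M0505 samples and no lower than 484 in a STOSE sample. The *Zar1* probe set gave the highest array reading of the list in both lines. Readings of different probe sets, and their sums, are not amounts of RNA.

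Single markers of other ovarian cells fell with *Ct55*. *Inha* fell (log2 fold change -3.93, from 9.61 to 5.68). In M0505 cells its probe set gave the highest array reading of the 10 granulosa and theca markers, which does not rank amounts of RNA. The summed signal of the 10 was 1113, 1233 and 1170 in M0505 samples and 465, 461 and 463 in STOSE samples. *Inha* made up the largest share of the M0505 sums and was the 1 marker of the 10 called. The lower STOSE sums therefore do not show a fall of the other 9. Of these 10 markers, 3 were above the background level in M0505 cells and 4 in STOSE cells. *Foxl2* (6.76 and 6.39) and *Inhba* (7.47 and 7.73) were above it in both lines and were not called, *Amh* was at 4.68 and 4.95, and the other 6, among them *Fshr* and *Cyp19a1*, were under it in both lines. *Kdr* fell (log2 fold change -5.17, from 9.58 to 4.41). In M0505 cells its probe set gave the highest array reading of the 6 endothelial markers. The summed signal of the 6 was 864, 950 and 868 against 155, 153 and 158. *Kdr* made up the largest share of the M0505 sums and was the 1 marker of the 6 called, so these sums do not show a fall of the other 5. The STOSE mean of *Kdr* was under the background level, against which the difference was at least 28.6-fold. *Cdh5* (4.81 and 5.01), *Tek* (4.76 and 4.78) and *Vwf* (5.33 and 5.50) were above that level in both lines and were not called, and *Pecam1* and *Emcn* were under it in both. None of 6 leukocyte markers was called by limma, against 7.59% lower and 4.9% higher among all genes. At an unadjusted p under 0.05 limma passed 1 of them, and the methods' t-test with the 2-fold threshold called 0. The *Cd3e* probe set gave the highest array reading of the 6 in both lines. The summed signal of the 6 was 122, 118 and 115 against 124, 124 and 132. The part of other cells in the fall of *Ct55* was not tested.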

How the data were processed

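The authors normalized the arrays by RMA (Affymetrix Expression Console) and deposited log2 values, 1 column per array, for 28944 probe sets. Of these 23530 had a gene symbol, and the brightest probe set was kept for each of 20405 genes. Software versions, annotation release and genome build are not given in the sources used here. The deposited table also holds the mean of each line, the linear ratio and a signed fold change score computed by the authors, which were not used. No column was left without a sample.

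A linear model with the line as its single term was fitted by limma (3.58.1, R 4.3.3, lmFit then eBayes), and p-values were adjusted by Benjamini-Hochberg over all genes. The code was tested on simulated data. Precision rests on 3 arrays per line. The labels say "biological replicate" and no more, so p-values measure the spread between these samples. Groups of 3 cannot give a small exact p, so none is reported.

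The 10 genes and the lists were chosen with earlier results of these data known. Genes named singly are the 10, up to 6 called genes per list and direction, 9 silencing factors, called neighbors and the 5 genes nearest to *Ct55*, with any other gene, the uncalled markers and *Piwil1* included, chosen after its values were seen. Overlapping genes and near-identical copies can share signal. List symbols were matched through RefSeq names and synonyms of GRCm38.p6, which placed 97.5% of genes, and 10 list genes were not matched to the table. The table names no build, so coordinates are printed for the RefSeq promoter stretches alone, in which all 10 genes were matched. Alternatives were a further quantile normalization, centring, a filter on the dimmest 25% of genes, the mean of probe sets, an intensity trend, a replicate block, the methods' t-test, no fold threshold, each array left out, and other background levels.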

Additional observations from a re-analysis of the deposited data

How the results depend on the processing

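*Ct55* kept its direction under each alternative run, with log2 fold changes of -7.06 to -6.74, of which leaving out single arrays gave -7.06 to -6.87. It was the 1 gene of the 10 above background in M0505 cells, and 0 were in STOSE cells, also with the background set at the 90th or 99th olfactory receptor percentile (4.38 and 5.52) or at the median of all probe sets (5.67). Centring each array on its median moved the median log2 fold change of all genes from 0.08 to 0.28, turned the sign of *Mael* (0.13), and moved the share of called genes that were higher from 39.2% to 55.5%. It left 2 germline list genes called lower in place of 4, and *Plac1* (1.00), *Dnmt1* (1.01) and *Setdb1* (1.08) were then called higher. Without the fold threshold, 12 germline list genes were lower and 42 higher, and over all genes 5066 were lower and 6454 higher. Of the 8 list genes called, 6 were called under every alternative run. With each array left out in turn the 4 lower and 4 higher list genes were kept in number, and the calls over all genes were 1508 to 1591 lower and 955 to 1065 higher. Replicate numbers were shared between the lines, and deviations correlated by 0.256, 0.042 and 0.249 for the 3 numbers, against -0.293 to 0.119 between different numbers. Only STOSE replicate 2 correlated better with another number (0.119 with M0505 replicate 3). The labels name no pairs, so the samples were not taken as pairs in the main fit. No call on a list gene changed with the block. With the replicate block 1001 genes were higher and 1548 lower, and 4 list genes in each direction. The filter on the dimmest 25% of genes gave no value for 9 of the 10 genes. Signal over background limits the reading of these 9 genes, since all their values were under the background level.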
